A study of Mus musculus with 24 samples.

Results

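The comparison described here is that of FMRKO with control mice during corticosterone treatment, and it rests on 8 of the 24 RNA-seq libraries in the series, all from inguinal white adipose tissue, a subcutaneous fat depot. Its members were taken from the sample labels: 4 libraries of FMRKO mice (AdipoqCre+, MRflox/flox) and 4 of control mice, which carried the same floxed alleles of Nr3c2 and no Cre. All 8 came from male mice, per the title of the series, and all had received corticosterone, the main glucocorticoid of the mouse. The dose, the route and length of treatment and the age of the mice are not stated in the labels used here. The other 16 libraries are FMRKO and control mice on chow or on a high-fat diet, 4 per group, and they serve below only for the spread between libraries and for the test of whether the knockout effect differed between conditions. The Adipoq promoter drives Cre in fat cells, so vessel, nerve, immune and stromal cells of the pad keep an intact receptor gene. In such bulk tissue, fewer cells of a type and less RNA per cell cannot be told apart. Whether each library is from its own animal is not stated in the labels, and p-values therefore reflect only how far these libraries differ.

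Nr3c2 encodes the mineralocorticoid receptor, a nuclear receptor that binds both aldosterone and corticosterone. Its close relative, the glucocorticoid receptor (Nr3c1), binds corticosterone less tightly, and both can bind the same DNA elements and induce overlapping genes. Fat cells hold both receptors, together with Hsd11b1, the enzyme that regenerates active corticosterone inside the cell. Hsd11b2, which inactivates corticosterone and protects the mineralocorticoid receptor of the kidney from it, is scarce in fat. Removing the mineralocorticoid receptor during glucocorticoid excess therefore asks which transcripts of the fat pad depend on it while the glucocorticoid receptor is strongly engaged.

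CPM is the count of a gene scaled to the TMM-adjusted library total. Library totals ran from 24712325 to 40427675 counts in the controls and from 23275622 to 34799132 in FMRKO. Fat cell genes were at a like level throughout: the mean log2 CPM of 24 adipocyte genes lay between 9.26 and 9.61 in the 8 libraries. Several libraries stood apart in transcripts of other cells, as the plot of gene lists by library shows. Control 2 had a mean log2 CPM of 6.31 over the tested skeletal muscle genes, against -0.43 to 0.95 in the other libraries. FMRKO 3 and FMRKO 4 had 1.84 and 0.84 over genes of simple and luminal epithelium, against -1.94 to -1.54 elsewhere. Genes of lymph node lymphocytes and stroma stood at 2.60 in FMRKO 2 and 2.20 in FMRKO 3, against -1.09 to -0.78 in the rest. FMRKO 2 also stood at 5.69 over the interferon-stimulated genes, where the other 7 libraries lay between 2.92 and 3.30. Results that rest on these libraries are given below with and without them.

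**Figure D1:**
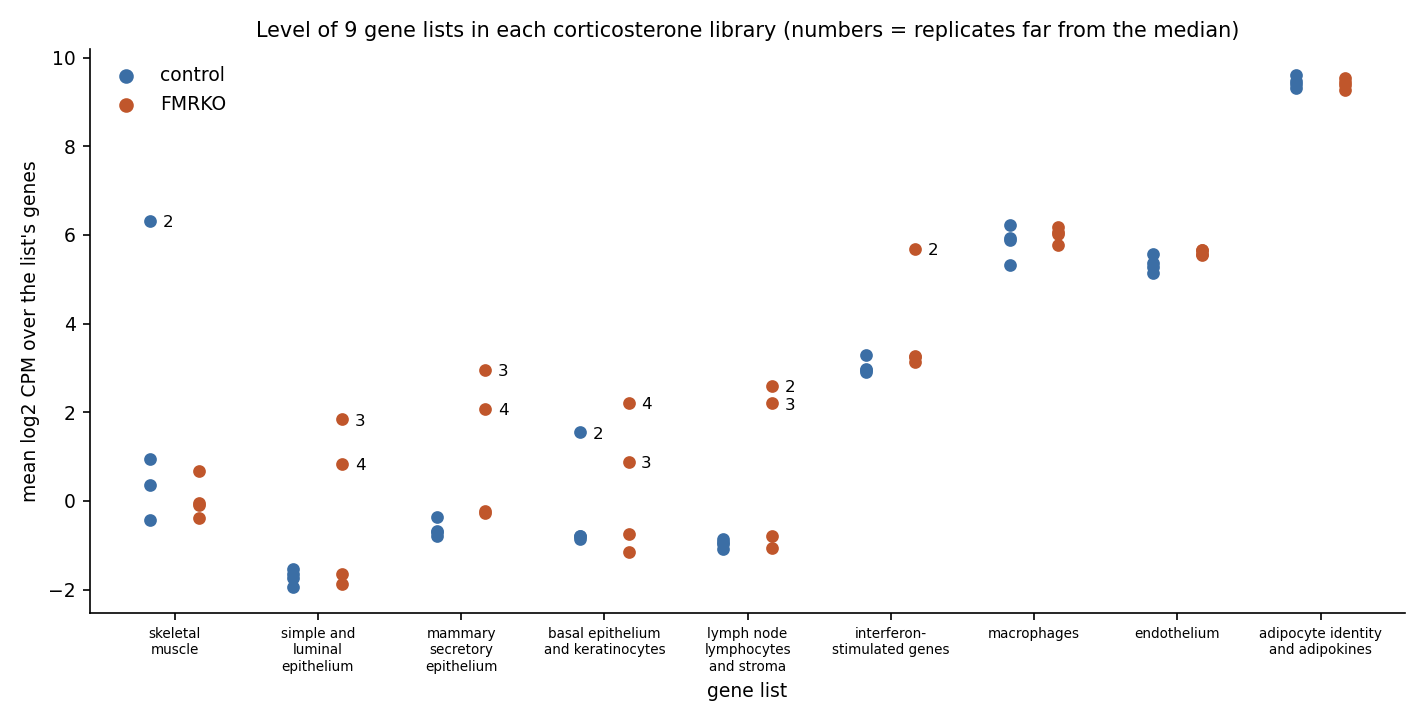
Mean log2 CPM over the tested genes of 9 lists (y axis) in each of the 8 corticosterone libraries, controls in blue and FMRKO in orange, with replicate numbers beside points far from the list's median. Control 2 stands out in skeletal muscle (6.31), FMRKO 3 and 4 in simple and luminal epithelium (1.84 and 0.84), and FMRKO 2 in the interferon-stimulated genes (5.69), while the adipocyte genes lie between 9.26 and 9.61 in all 8.

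The targeted gene was lower in FMRKO in every library. Nr3c2 (ENSMUSG00000031618, GRCm38 chromosome 8, 76899442 to 77245012, plus strand) stood at 16.2, 18.4, 18.2 and 14.1 CPM in controls 1 to 4 and at 10.7, 7.73, 12.2 and 11.7 CPM in FMRKO 1 to 4. The groups did not overlap, and FMRKO 2 was the lowest of all 8. The log2 fold change was -0.66 ± 0.20 (standard error) with an adjusted p of 0.844 (edgeR quasi-likelihood test, Benjamini-Hochberg over all 19717 genes tested). As a single value fixed by the design, the difference in log2 CPM was -0.67 with p = 0.029 in a two-sided exact permutation test over the 8 libraries, and 0.0286 is the smallest p that 4 against 4 allows. Counts cover the whole gene, with reads of the floxed exon and of cells without Cre included, so the loss within fat cells cannot be read from this value. On chow the log2 fold change of Nr3c2 was -0.29 ± 0.20 and under high-fat feeding -0.52 ± 0.20, and the corticosterone effect did not differ from either by the test of the difference (-0.36 ± 0.28, adjusted p = 0.939, and -0.13 ± 0.28, adjusted p = 1.000, edgeR).

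The receptor's partners showed no such difference. Per kilobase of exon, Nr3c1 stood at 22 ± 0.993 CPM per kb in controls (SD, n = 4) and 20.8 ± 2.22 in FMRKO, while Nr3c2 stood at 2.58 ± 0.312 and 1.64 ± 0.31. The ratio of Nr3c1 to Nr3c2 on this scale ran from 7.49 to 10 in the controls and from 10.5 to 15.7 in FMRKO. Hsd11b1 was far more abundant per length, at 218 ± 76.4 CPM per kb in controls and 209 ± 62.4 in FMRKO, and Hsd11b2 was low, at 1.17 ± 0.185 and 1.52 ± 0.446. Of 19 tested genes for corticosteroid receptors, enzymes and chaperones, Nr3c2 alone had an unadjusted p under 0.05, in the lower direction, and the median log2 fold change was -0.02. The steroid-synthesising enzymes Cyp11b1, Cyp11b2 and Cyp21a1 did not pass the filter on low counts.

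Across all genes few differences passed adjustment. The targeted gene Nr3c2 did not pass either (adjusted p = 0.844, edgeR), so the count of calls does not measure the size of the effect. Of 19717 genes, 1 passed an adjusted p of 0.05 (0.00507%), the zinc finger gene Zfp949. At an unadjusted p under 0.05 stood 843 genes (4.28%), 612 of them higher in FMRKO (3.1%) and 231 lower (1.17%). In 971 genes (4.92%) the 4 FMRKO and 4 control libraries did not overlap, 481 with FMRKO above (2.44%) and 490 with FMRKO below (2.49%). The median log2 fold change over all genes was 0.01, a value that the TMM scaling itself keeps near 0. These shares are the background for the gene lists that follow.

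Zfp949 (ENSMUSG00000032425, chromosome 9, 88548020 to 88571061, plus strand) encodes a zinc finger protein of the family of putative transcriptional regulators. It stood at 8.93, 8.79, 7.39 and 8.34 CPM in the controls and at 17.4, 16.7, 18.1 and 14.7 CPM in FMRKO. Every FMRKO library was above every control. The log2 fold change was 1.00 ± 0.084 (adjusted p = 2.1e-06, edgeR), and it lay between 0.92 and 1.03 under the 19 alternative settings, with adjusted p from 2.4e-22 to 0.022. The gene also rose in FMRKO on chow (1.46 ± 0.085) and under high-fat feeding (1.20 ± 0.085), where its levels were 26.7 ± 2.2 against 9.73 ± 0.407 CPM and 17.9 ± 0.621 against 7.79 ± 0.438 CPM (SD, n = 4).

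Eif4a2, an RNA helicase of the eIF4F complex that loads ribosomes onto capped mRNA, stood at 202, 155, 159 and 188 CPM in the controls and at 254, 265, 254 and 235 CPM in FMRKO. The groups did not overlap, and the FMRKO libraries lay close together. Its log2 fold change of 0.52 ± 0.087 just missed the threshold (adjusted p = 0.054, edgeR), ran from 0.44 to 0.57 under the alternatives, and had adjusted p from 6.4e-05 to 1.000. Leaving out control 1, the highest control, brought Eif4a2 past the threshold. On chow and under high-fat feeding Eif4a2 was higher by 0.61 ± 0.087 and 0.65 ± 0.087 and passed in both (adjusted p = 0.006 and 0.002), where Zfp949 and Eif4a2 were the 2 genes called in each comparison (0.0101%). Eif4a1, the paralogous helicase, had a log2 fold change of -0.047 ± 0.10, and per kilobase of exon it stood at 61.4 ± 4.79 CPM in controls and 59.5 ± 1.87 in FMRKO against 33 ± 4.24 and 47.2 ± 2.36 for Eif4a2. Of 15 tested eIF4F genes, Eif4a2 alone had an unadjusted p under 0.05. The scaffold genes Eif4g1 (-0.087 ± 0.12) and Eif4g2 (-0.11 ± 0.10) did not overlap between the groups either, with FMRKO slightly below. Without overlap, 1 of the 15 thus lay above and 2 below, against 2.44% and 2.49% of all genes. Eif4a2 lies beside Adipoq on chromosome 16, and the transgene carries Adipoq regulatory sequence. A list of Adipoq and the genes that flank it held 14 tested genes. Of these, Eif4a2 and Rtp4 were higher and Bcl6 (-0.71 ± 0.32, a transcriptional repressor) lower at an unadjusted p under 0.05. Over all genes these shares were 3.1% and 1.17%. The Rtp4 value came from FMRKO 2, at 45.2 CPM against 5.59 to 9.82 in the other 7 libraries.

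Gsta4, a glutathione S-transferase that clears the lipid peroxidation product 4-hydroxynonenal, showed the clearest separation among antioxidant genes. It stood at 14.9, 9.97, 9.98 and 10.1 CPM in the controls and at 31.7, 26.9, 31 and 29.6 CPM in FMRKO. The lowest FMRKO library was well above the highest control. The log2 fold change was 1.40 ± 0.31 (adjusted p = 0.480, edgeR) and ran from 1.31 to 1.55 under the alternatives, with adjusted p from 9.7e-04 to 1.000. Gsta4 passed in the fit of the 8 corticosterone libraries alone, in DESeq2 and in limma voom. Gsta4 was also higher in FMRKO on chow (0.92 ± 0.31) and under high-fat feeding (1.39 ± 0.31). Of 23 tested antioxidant and glutathione genes, 19 had a negative log2 fold change, against 9566 of the 19717 genes tested, and Gsta4 alone had an unadjusted p under 0.05. The list median was -0.10, and 0.03 with the muscle, epithelium and lymph node covariates. In all 4 FMRKO libraries 4 of the 23 lay below every control (background 2.49%) and 1 above (background 2.44%). The 4 below, each by a small amount, were Gstm1 (-0.18 ± 0.16), Gss (-0.17 ± 0.15), Sod2 (-0.15 ± 0.18) and Prdx1 (-0.19 ± 0.20). These genes conjugate or make glutathione, or remove superoxide and peroxide. The gene model Gm11868, chosen after its values were seen, stood at 1.15, 0.315, 0.578 and 0.299 CPM in the controls and 2.36, 2.12, 2.23 and 2.93 CPM in FMRKO (2.04 ± 0.35, adjusted p = 0.054, edgeR; range over the alternatives 1.69 to 2.58 and adjusted p from 6.0e-06 to 0.548), and it too passed without control 1.

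**Figure D2:**
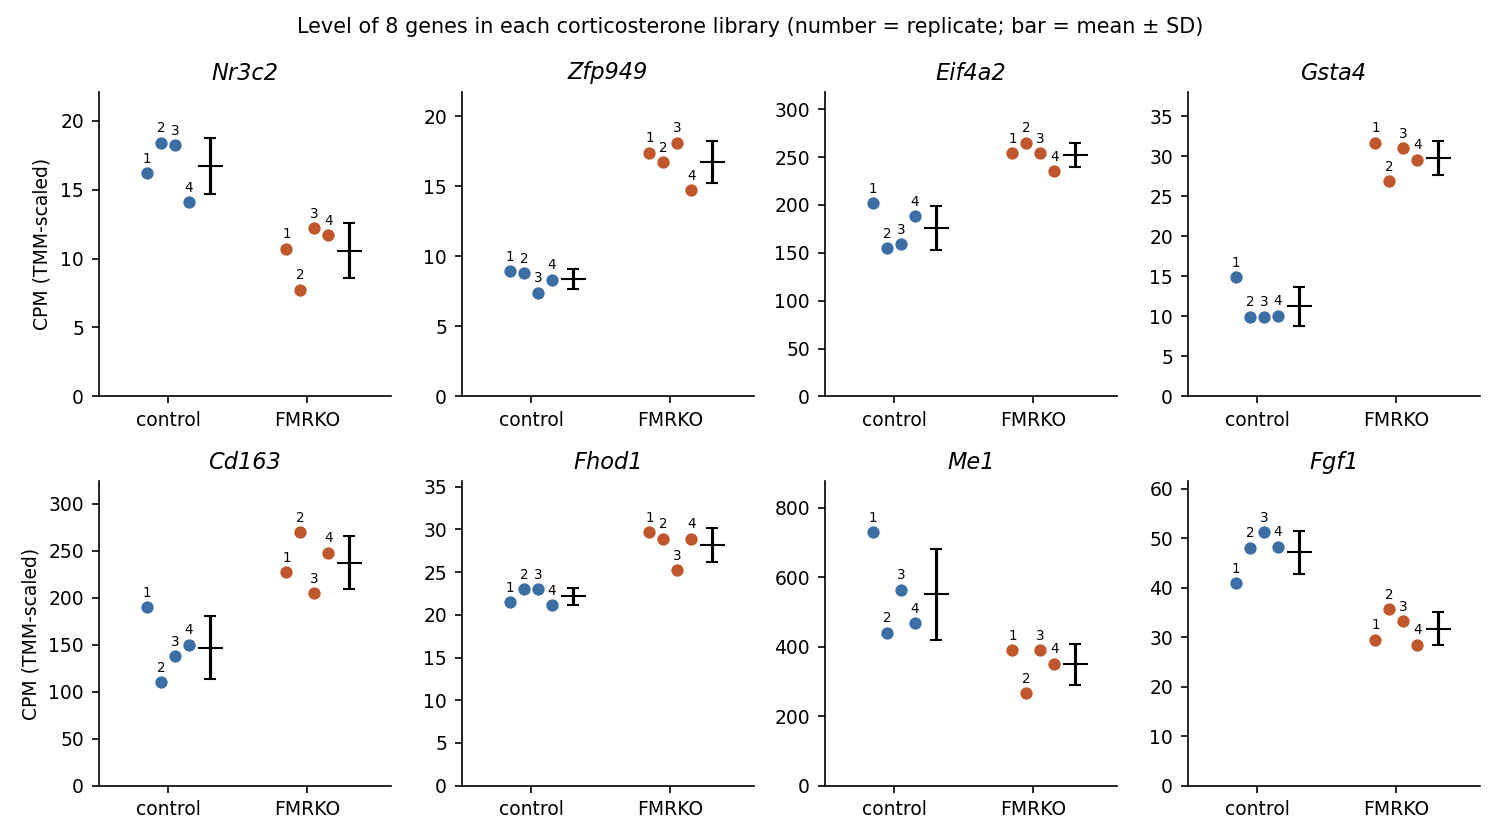
CPM, TMM-scaled, of 8 genes in each control (blue) and FMRKO (orange) library with corticosterone, with replicate numbers and the mean ± SD of 4 as a bar beside them. Zfp949, Eif4a2, Gsta4, Cd163 and Fhod1 lie above and Nr3c2, Me1 and Fgf1 lie below the controls in all 4 FMRKO libraries, and only Zfp949 has an adjusted p under 0.05.

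Genes known to be induced by glucocorticoids had mostly positive log2 fold changes in FMRKO, and none passed in the edgeR fit of all libraries. Of 25 tested, 22 had a positive log2 fold change, against 10136 of the 19717 genes tested, with a median of 0.25, and 0 had an unadjusted p under 0.05 in the edgeR fit, where the background is 3.1% in this direction. Fkbp5, a receptor co-chaperone that glucocorticoids induce, stood at 411, 250, 188 and 248 CPM in the controls and at 388, 471, 328 and 452 CPM in FMRKO (0.58 ± 0.31). Control 1 sat within the FMRKO range and the other 3 controls below it. The same order held for Tsc22d3, which encodes the anti-inflammatory protein GILZ, at 422, 316, 233 and 280 CPM in the controls against 327, 453, 331 and 433 CPM in FMRKO (0.30 ± 0.24). Per1 (0.29 ± 0.29) and Zbtb16 (0.35 ± 0.34), a clock gene and a zinc finger gene that the hormone induces, overlapped as well. Control 1 was again the highest control for both, at 210 and 375 CPM. In the fit of the corticosterone libraries alone, in limma voom and with a replicate block, 4 of the 25 had an unadjusted p under 0.05 in each. Without control 1 the median of the 25 was 0.37 and 2 had an unadjusted p under 0.05, while without FMRKO 2, FMRKO 4 or control 3 it was 0.14, 0.16 and 0.14 with 0. The time of tissue collection relative to dosing is not stated in the labels, and control 1 also had the highest mean log2 CPM over the clock genes, at 5.18 against 4.93 to 5.09 in the other 7 libraries. Per2, the clock repressor, was higher in FMRKO by 0.49 ± 0.21 (unadjusted p = 0.032), the only clock gene of 19 at an unadjusted p under 0.05.

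Of 17 tested genes linked to mineralocorticoid action, 14 had a positive log2 fold change (median 0.20), against 51.4% of all genes. Some members, Tsc22d3 and Per1 among them, are also in the glucocorticoid list. In the higher direction 1 had an unadjusted p under 0.05 (background 3.1%). In all 4 FMRKO libraries 3 lay above and 1 below the controls (background 2.44% and 2.49%). The epithelial sodium channel subunit Scnn1a stood at 1.76, 1.1, 1.4 and 1.75 CPM in the controls and 2.14, 1.81, 6.41 and 4.46 CPM in FMRKO (1.31 ± 0.38, unadjusted p = 0.003). Its highest values were in FMRKO 3 and 4, the libraries with transcripts of simple and luminal epithelium, and without both the log2 fold change was 0.38. The partner subunit Scnn1b was near the detection limit in all libraries, at 0.128 to 0.446 CPM in the controls and 0.479 to 0.676 CPM in FMRKO. Nox4, a NADPH oxidase that makes hydrogen peroxide, stood at 6.42, 5.98, 4.17 and 5.22 CPM in the controls and 8.17, 7.24, 7.91 and 7.36 CPM in FMRKO (0.49 ± 0.29). All 4 FMRKO libraries were above all controls, with FMRKO 1 the highest. Nedd4l, the ubiquitin ligase that removes the sodium channel from the membrane, stood at 63.2 to 74.7 CPM in the controls and 56.2 to 61.6 CPM in FMRKO (-0.21 ± 0.10).

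Fat cell identity and metabolism were close to the controls. Of 24 tested genes for adipocyte identity and adipokines, 0 had an unadjusted p under 0.05 (edgeR) and the median log2 fold change was -0.08. Adipoq, the adiponectin gene whose promoter drives Cre, stood at 1488, 1333, 1581 and 1664 CPM in the controls and 1608, 1445, 1677 and 1447 CPM in FMRKO, and Lep, the leptin gene, at 3012, 3412, 2713 and 1961 CPM against 2846, 2947, 2610 and 3010 CPM. Neither showed a difference beyond the spread of its libraries. Of 22 tested genes for lipogenesis and triglyceride synthesis, 16 had a negative log2 fold change (median -0.11). Me1, the malic enzyme that supplies NADPH for fatty acid synthesis, was the only member at an unadjusted p under 0.05: it stood at 730, 440, 564 and 467 CPM in the controls and at 389, 266, 389 and 351 CPM in FMRKO (-0.66 ± 0.25, unadjusted p = 0.014). All 4 FMRKO libraries were below all controls. Me1 lies on chromosome 9 within 5 Mb of Zfp949, and it was lower in FMRKO on chow (-0.45 ± 0.25) and under high-fat feeding (-0.46 ± 0.25) by a like amount. Fasn, the fatty acid synthase that uses this NADPH, had a log2 fold change of -0.10 ± 0.29, and the desaturase Fads1, whose groups did not overlap, had -0.12 ± 0.21. Of 21 tested genes for cholesterol synthesis, 18 were negative (median -0.11), with Fdps, which makes farnesyl diphosphate, below the controls in all 4 libraries (-0.29 ± 0.20). All 22 tested genes of oxidative phosphorylation were negative with a median of -0.07, and 0 had an unadjusted p under 0.05. Over all genes 9566 of 19717 were negative, which is the background for the lipogenesis, cholesterol and oxidative phosphorylation lists. For oxidative phosphorylation the median stayed between -0.15 and -0.06 when control 1, control 2, FMRKO 2 or the doubtful FMRKO libraries were left out. With the muscle, epithelium and lymph node levels as covariates it was -0.01, and the medians for lipogenesis and for adipocyte identity were -0.01 and 0.10. Without control 1 the lipogenesis median was -0.03. Lists for lipolysis (median -0.01), insulin signalling (-0.03), thermogenic fat (0.05), adipogenic transcription factors (-0.03), preadipocytes and stromal fibroblasts (0.08) and extracellular matrix (0.01) each had between 0 and 1 members at an unadjusted p under 0.05.

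Among macrophage genes the list as a whole stayed near the controls (median 0.09 over 21), while Cd163, a haemoglobin scavenger receptor of resident macrophages that glucocorticoids induce, was higher in FMRKO. Cd163 stood at 190, 110, 138 and 150 CPM in the controls and 227, 270, 205 and 248 CPM in FMRKO (0.70 ± 0.22, unadjusted p = 0.005, adjusted p = 0.924, edgeR). The groups did not overlap, and the log2 fold change stayed between 0.56 and 0.83 under the 19 alternatives. Lyve1, a hyaluronan receptor of perivascular macrophages and lymphatic vessels, followed it at 91.7, 73.2, 59.3 and 78.2 CPM against 96.2, 150, 94.4 and 103 CPM (0.55 ± 0.25). The pan-macrophage gene Adgre1, at 44.1 to 84.1 CPM in the controls and 54.7 to 86.3 CPM in FMRKO, overlapped (0.10 ± 0.31). The effect on Cd163 was -0.11 ± 0.22 on chow and 0.27 ± 0.22 with high-fat feeding. Cd163 was named for its corticosterone values, so no test of the difference between conditions is given.

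The list that differed most in number of genes was that of interferon-stimulated genes, and 1 library carried the difference. Of 21 tested, 19 had an unadjusted p under 0.05, all higher in FMRKO, where the background is 3.1%, and the median log2 fold change was 1.13. FMRKO 2 held the highest value for every one of the 21, as the plot of 20 of these genes shows. Without FMRKO 2 the count was 1 of 21 and the median 0.14. The count with all libraries was 8 in the fit of the corticosterone libraries alone, 4 in limma voom and 6 with a replicate block. Stat2, a transcription factor through which type I interferons signal, stood at 115 CPM in FMRKO 2, at 29.4 to 29.7 CPM in the other FMRKO libraries and at 24.3 to 28.9 CPM in the controls. Irf7, which amplifies the type I interferon response, reached 151 CPM in FMRKO 2 against 16.3 to 28.2 CPM elsewhere.

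The effectors followed the same order. The antiviral gene Isg15, a ubiquitin-like modifier, reached 46.3 CPM in FMRKO 2 against 1.94 to 4.15 CPM in the other 7 libraries, and Ifit1, which binds viral RNA, and its partner Ifit3 reached 44 and 103 CPM against 2.76 to 5.68 and 8.71 to 12.7 CPM. Rsad2, which encodes viperin, reached 36.9 CPM against 7.14 to 9.28 CPM. Genes of the type II interferon response were also high in FMRKO 2: Gbp2, a guanylate-binding protein, at 180 CPM against 22 to 26 CPM, the chemokine Cxcl9 at 176 CPM against 8.82 to 13 CPM, and the immunity GTPase Iigp1 at 207 CPM against 2.43 to 6.85 CPM. The chemokine Cxcl10 stood at 26.9 CPM against 4.23 to 5.74 CPM. Gzmb, the granzyme of cytotoxic lymphocytes, stood at 14.4 CPM against 0.143 to 0.42 CPM, and the immunoglobulin gene Ighg2b at 62.2 CPM in FMRKO 2, 28.1 CPM in control 2 and 14 CPM in FMRKO 4 against 0.684 to 2.51 CPM elsewhere. Iigp1, Gzmb and Ighg2b were chosen after their values were seen. Of 19 tested genes of lymph node lymphocytes and stroma, 6 had an unadjusted p under 0.05, all higher (background 3.1%), with a median log2 fold change of 3.02. Without FMRKO 2 and 3 the count was 0 and the median -0.05. Lymph node transcripts were high in FMRKO 2 and also in FMRKO 3, which had a mean log2 CPM of 3.24 over the interferon-stimulated genes, within the range of the controls. Cd8a, a marker of cytotoxic T cells, stood at 3.75 CPM in FMRKO 2 and 2.53 CPM in FMRKO 3 against 0 to 0.214 CPM elsewhere, and Cd3e at 5.92 and 2.91 CPM against 0.257 to 0.761 CPM. What set FMRKO 2 apart was not tested.

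**Figure D3:**
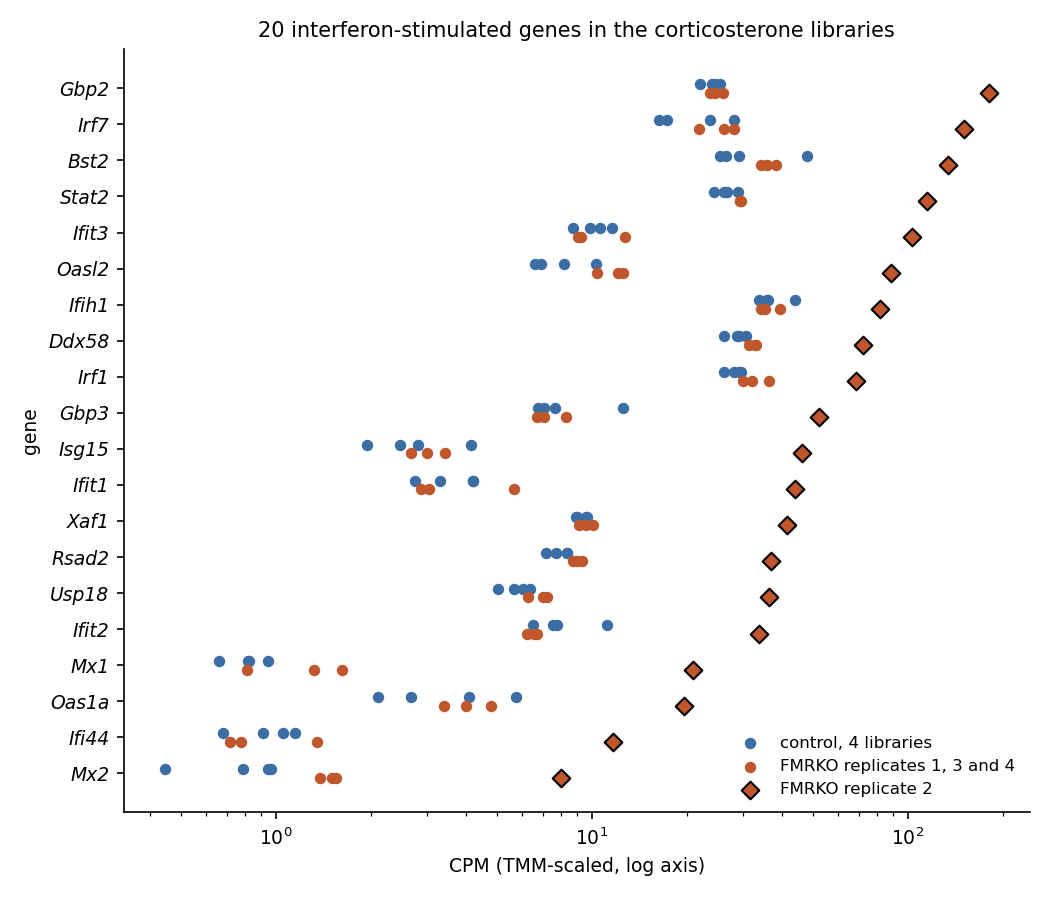
CPM (TMM-scaled, log axis) of 20 interferon-stimulated genes in the 4 control libraries (blue), FMRKO replicates 1, 3 and 4 (orange circles) and FMRKO replicate 2 (outlined diamonds). FMRKO 2 is the highest library for all 20 genes, from Mx2 (8 CPM) to Gbp2 (180 CPM), and the other FMRKO libraries lie on or close to the controls.

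In 7 of the 21 genes all 4 FMRKO libraries lay above every control, where the share over all genes was 2.44%. FMRKO 2 led all 21 genes, so this share is not a like background for the other FMRKO libraries. No share over all genes was computed for those libraries alone. Mx2, Oasl2 and Irf1 were among the 7, Oasl2 and Irf1 by a narrow margin. Mx2, a nuclear antiviral GTPase, stood at 0.968, 0.446, 0.784 and 0.941 CPM in the controls and 1.55, 8, 1.38 and 1.5 CPM in FMRKO (1.98 ± 0.47, and 0.90 without FMRKO 2). Oasl2, an antiviral member of the oligoadenylate synthetase family, stood at 8.17, 6.59, 6.89 and 10.3 CPM against 10.4, 88.6, 12.1 and 12.5 CPM (1.95 ± 0.55, and 0.53 without FMRKO 2). Irf1, a transcription factor that interferon gamma induces, stood at 26.2 to 29.7 CPM in the controls and at 32.1, 68.6, 36.4 and 30.1 CPM in FMRKO. None of these passed in the edgeR fit of all libraries (adjusted p = 0.654 for Mx2, 0.825 for Oasl2 and 0.924 for Irf1). Mx2 passed without FMRKO 3 and 4 (adjusted p = 0.039), where FMRKO 2 is 1 of 2 remaining FMRKO libraries, and its adjusted p ran up to 1.000 under the other alternatives. The lowest adjusted p under the alternatives was 0.084 for Oasl2 and 0.182 for Irf1.

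Genes of this list carry a known promoter element, the interferon-stimulated response element, bound by complexes that hold STAT2 and IRF9 and by other IRF proteins. Its core was searched as GAAANNGAAA on both strands (TTTCNNTTTC on the other) in RefSeq promoter windows of GRCm38.p6 that run from 250 bases before to 50 bases after the start. Of the 21 genes 17 had a window, and 11 of these held at least 1 match, against 3.99% of 27025 genes. Upstream stretches are shown for 4 genes with a high value in FMRKO 2, from 170 to 31 bases before the start, 5′ to 3′ on the strand of the gene, with matches in capitals. A match is a description of these letters and not a measured binding site. They are Isg15 (chr4:156200849-156200988, minus strand), whose 3 matches overlap, Ifit1 (chr19:34640719-34640858, plus strand), with 2, Ifit3 (chr19:34583359-34583498, plus strand), with 2, and Rsad2 (chr12:26456483-26456622, minus strand), with 1:
Isg15: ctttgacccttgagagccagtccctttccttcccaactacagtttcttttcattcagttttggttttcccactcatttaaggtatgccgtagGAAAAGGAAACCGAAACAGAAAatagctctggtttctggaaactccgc
Ifit1: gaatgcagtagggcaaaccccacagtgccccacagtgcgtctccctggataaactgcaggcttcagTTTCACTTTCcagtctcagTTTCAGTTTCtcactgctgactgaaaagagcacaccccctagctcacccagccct
Ifit3: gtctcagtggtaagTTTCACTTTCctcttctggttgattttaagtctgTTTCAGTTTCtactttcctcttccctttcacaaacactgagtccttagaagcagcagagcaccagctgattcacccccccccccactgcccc
Rsad2: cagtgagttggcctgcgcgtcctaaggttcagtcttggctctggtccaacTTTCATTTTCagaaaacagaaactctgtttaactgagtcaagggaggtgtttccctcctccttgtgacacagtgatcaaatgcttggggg
The Ifit genes have close paralogs beside them, so reads may be split between copies and their levels are less certain.

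Skeletal muscle genes had the lowest median of all lists, and it came from control 2. Of 20 tested muscle genes, 16 had an unadjusted p under 0.05 in the lower direction (background 1.17%) with a median log2 fold change of -5.17, and without control 2 the count was 0 and the median -0.41. Myh4, the fast myosin heavy chain, stood at 641 CPM in control 2 and at 0.0717 to 7.06 CPM in the other 7 libraries. Ckm, muscle creatine kinase, stood at 118 CPM against 0 to 0.786 CPM, and the giant sarcomere gene Ttn at 1363 CPM against 6.41 to 17.6 CPM. For Myh4 the 4 FMRKO libraries lay within the range of the other 3 controls. Without control 2 the log2 fold change of Ttn was 0.11 in place of -4.78.

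Transcripts of simple and luminal epithelium gave positive values that came from FMRKO 3 and 4. Of 16 tested genes of simple and luminal epithelium, 10 had an unadjusted p under 0.05, all higher (background 3.1%), with a median log2 fold change of 2.47. Without FMRKO 3 and 4 the count was 1 of 15 and the median 0.04. Epcam, an epithelial adhesion molecule, stood at 0, 0.442, 6.91 and 2.89 CPM in FMRKO and at 0 to 0.105 CPM in the controls. Krt8, a keratin of simple epithelia, stood at 0.184, 0.883, 12.1 and 3.93 CPM against 0.0428 to 1.15 CPM, and Gata3, a transcription factor of luminal mammary and other epithelia, at 0.736, 1.15, 11.3 and 7 CPM against 0.171 to 0.919 CPM. FMRKO 1 lay within the range of the controls for all 3 genes, and FMRKO 2 lay above all controls for Epcam and Gata3 but far below FMRKO 3 and 4. Mammary secretory genes marked the same libraries, with 4 of 8 tested at an unadjusted p under 0.05 (background 3.1%) and 0 of 8 without FMRKO 3 and 4. The milk protein gene Csn3 stood at 12.5 and 4.21 CPM in FMRKO 3 and 4 and was at 0 in FMRKO 1 and 2, while Csn2, Wap and Lalba did not pass the filter on low counts. Fcgbp, a mucin-like secreted protein, stood at 40.3 and 17.7 CPM in FMRKO 3 and 4 against 0 to 0.341 CPM in the other 6. Ltf, the gene of the iron-binding milk and neutrophil protein lactoferrin, had 0 counts in all 4 controls and 2, 13, 1475 and 473 counts in FMRKO 1 to 4. Against the limit of 3 counts over the control group, the FMRKO mean of Ltf was at least 576-fold higher, through FMRKO 3 and 4. The mean of FMRKO 1 and 2 was at least 12.3-fold higher, through FMRKO 2 (0.574 CPM). FMRKO 1 stood at 0.0736 CPM, and its 2 counts are fewer than the limit itself. DESeq2 called Ltf and the edgeR fit did not (adjusted p = 0.786). Genes of basal epithelium and keratinocytes were not confined to FMRKO. Their mean log2 CPM was 2.22 in FMRKO 4, 1.55 in control 2 and 0.88 in FMRKO 3, against -1.15 to -0.74 elsewhere. Of 14 tested, 0 had an unadjusted p under 0.05 in the edgeR fit. Genes of the fat cell list had a median of -0.08 with all libraries, and the part of epithelial RNA in other results was not tested, except where values without FMRKO 3 and 4 are given.

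**Figure D4:**
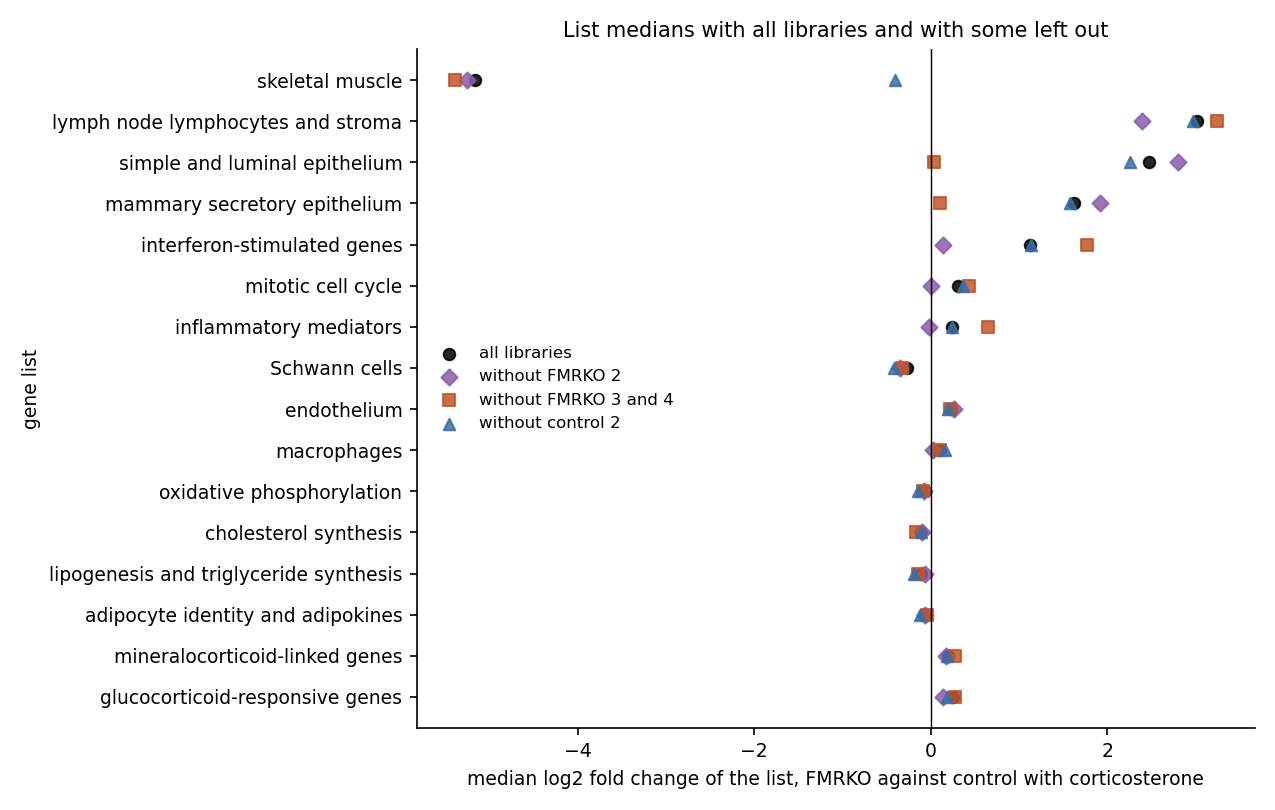
Median log2 fold change (x axis, FMRKO against control with corticosterone) of 16 gene lists with all libraries (black circles), without FMRKO 2 (purple diamonds), without FMRKO 3 and 4 (orange squares) and without control 2 (blue triangles). The skeletal muscle median moves from -5.17 to -0.41 without control 2, simple and luminal epithelium from 2.47 to 0.04 without FMRKO 3 and 4, and the interferon-stimulated genes from 1.13 to 0.14 without FMRKO 2, while the metabolic lists stay near 0.

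Vessel and nerve genes differed by less. Of 15 tested endothelial genes, 14 had a positive log2 fold change (median 0.23), against 51.4% of all genes. Pecam1, an adhesion molecule of all endothelium, stood at 93.6, 85.3, 89.9 and 83.4 CPM in the controls and 114, 94.3, 111 and 93.7 CPM in FMRKO (0.23 ± 0.10, unadjusted p = 0.026, edgeR). The lowest FMRKO library was just above the highest control. With 1 library left out the median ran from 0.15 (without FMRKO 1) to 0.26 (without FMRKO 2). The members at an unadjusted p under 0.05 were 2 of 15 with all libraries (background 3.1%) and 0 without control 2, control 3 or control 4. The count was 6 in the fit of the corticosterone libraries alone and 7 in limma voom. With the muscle, epithelium and lymph node levels as covariates it was 7, and the median was 0.33. Gpr182, a chemokine-scavenging receptor of endothelium, was higher as well, at 17.2, 12.6, 11.2 and 13.2 CPM against 19.1, 21.6, 18.9 and 18.6 CPM (0.53 ± 0.15, unadjusted p = 0.002, adjusted p = 0.825, edgeR). Of 11 tested Schwann cell genes, 10 were negative (median -0.27), against 9566 of the 19717 genes tested. In the lower direction 2 had an unadjusted p under 0.05 (background 1.17%). With the muscle, epithelium and lymph node levels as covariates the median was -0.11 with 1 such member, and with 1 library left out the count ran from 1 to 4, with 4 without FMRKO 1 or control 2 and 1 without FMRKO 2, FMRKO 3 or control 1. Ncmap, a protein of non-compact myelin, stood at 1.25, 0.446, 0.784 and 1.28 CPM in the controls and 0.258, 0.0883, 0.441 and 0.429 CPM in FMRKO (-1.58 ± 0.55). Its level was low in every library, and control 2 (0.446) was barely above FMRKO 3 (0.441). Of 17 immediate-early genes, Nr4a2, an orphan nuclear receptor, was the only one at an unadjusted p under 0.05, at 9.21, 8.79, 9.32 and 10.1 CPM against 7.44, 6.4, 7.11 and 6.71 CPM (-0.43 ± 0.19).

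The genes that separated the groups best with corticosterone are set beside their values in the other conditions. The 12 higher and 12 lower named genes with the smallest unadjusted p among those without overlap were chosen on the corticosterone values, so their effects here are a description, and their values on chow and under high-fat feeding come from other libraries. Fgf1, a growth factor that PPARG induces in fat, stood at 41, 48.1, 51.3 and 48.3 CPM in the controls and at 29.5, 35.7, 33.2 and 28.5 CPM in FMRKO (-0.57 ± 0.18). No FMRKO library reached the lowest control. On chow, where its level was 7.56 ± 1.71 CPM in controls and 9.82 ± 1.94 in FMRKO, the log2 fold change of Fgf1 was 0.37 ± 0.18. On the high-fat diet the level was 55.9 ± 11.5 and 56 ± 11.9 CPM. Since Fgf1 was chosen on its corticosterone values, no test of the difference between conditions is given for it.

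Fhod1, a formin that bundles actin filaments, stood at 21.5, 23, 23 and 21.1 CPM in the controls and 29.7, 28.9, 25.2 and 28.9 CPM in FMRKO (0.35 ± 0.076, adjusted p = 0.480, edgeR). The 4 controls lay close together, and the FMRKO libraries were all above them. Its effect was -0.094 ± 0.075 on chow and -0.045 ± 0.075 with high-fat feeding. Asxl3, a Polycomb-linked chromatin gene, was low throughout, at 1.58, 1.81, 1.53 and 1.07 CPM in the controls and 0.736, 0.663, 0.705 and 0.857 CPM in FMRKO (-1.01 ± 0.26), with 0.39 ± 0.25 on chow and 0.20 ± 0.25 with high-fat feeding. Pawr, a proapoptotic protein, was higher by 0.77 ± 0.21, the transforming growth factor beta receptor relative Tgfbr3l by 0.87 ± 0.22, the synaptic adhesion gene Lrfn1 by 0.84 ± 0.23 and the membrane protein gene Mansc1 by 0.64 ± 0.16. The elastase gene Cela1 (-0.76 ± 0.22), Tmc7 (-0.80 ± 0.27), the ubiquitin ligase subunit Fbxo27 (-0.51 ± 0.17), the tetraspanin Tspan17 (-0.36 ± 0.12), the centrin Cetn3 (-0.29 ± 0.10), the kinase Map3k4 (-0.28 ± 0.10), Zfp367 (-0.28 ± 0.087), the corepressor subunit Suds3 (-0.23 ± 0.083) and the ribosomal pseudogene Rpl9-ps7 (-0.47 ± 0.17), whose reads can be split with its parent gene, were lower. None of these passed after adjustment in edgeR. As the plot of the effect in 3 conditions shows, Gsta4, Zfp949, Eif4a2 and Nr3c2 kept their direction on chow and under high-fat feeding, and Rpl9-ps7 had the opposite direction on chow (0.75 ± 0.17).

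**Figure D5:**
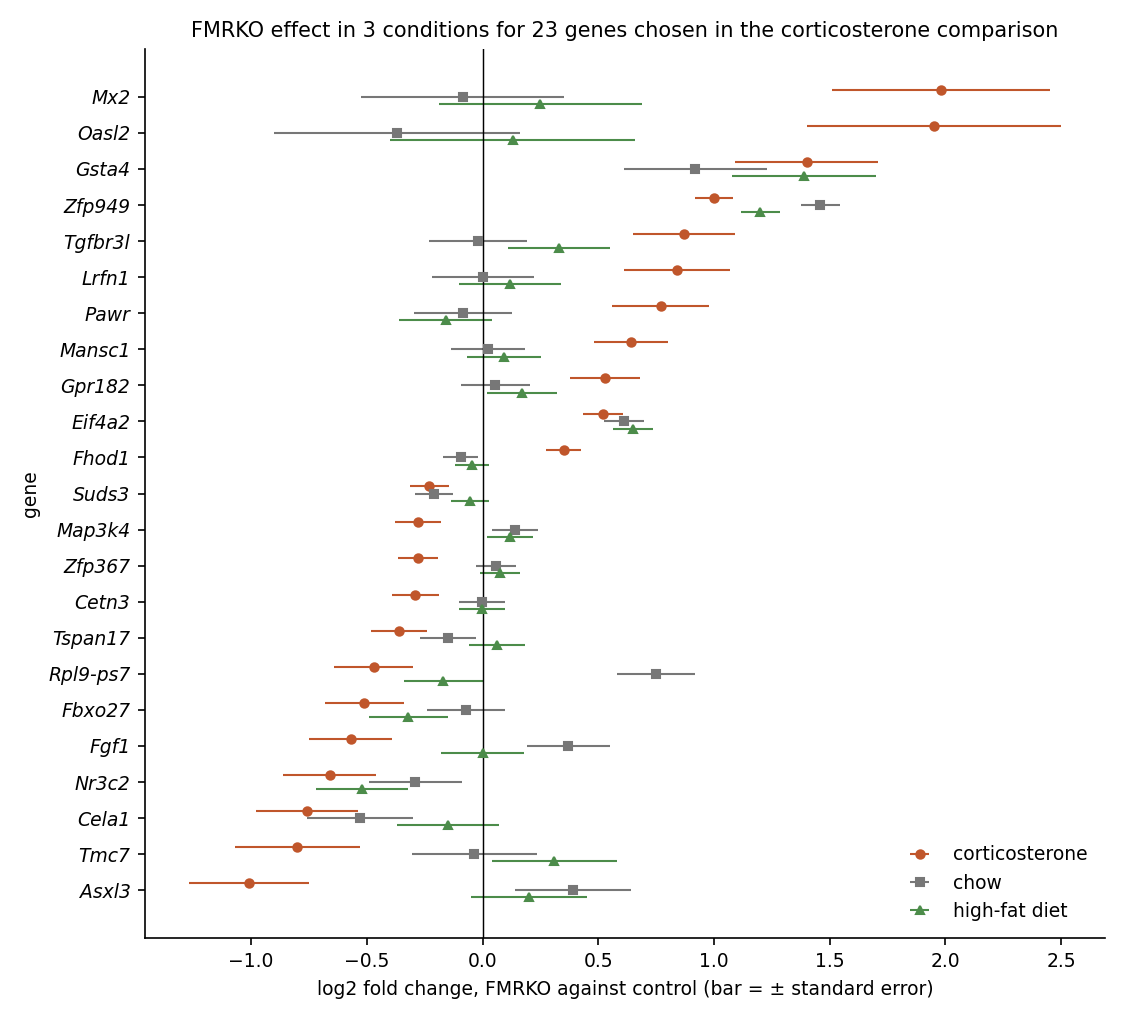
Log2 fold change of FMRKO against control (x axis, bar = ± standard error) with corticosterone (orange circles), on chow (grey squares) and under high-fat feeding (green triangles) for 23 genes chosen for their corticosterone values; Ltf is left out because it had 0 counts in all 4 controls. Zfp949 (1.00, 1.46 and 1.20), Eif4a2 (0.52, 0.61 and 0.65) and Gsta4 (1.40, 0.92 and 1.39) lie to the right in all 3 conditions, whereas Fhod1 (0.35, -0.094 and -0.045) and Fgf1 (-0.57, 0.37 and 0.00) do not share 1 direction.

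The test of the difference itself called no gene in edgeR. For the corticosterone effect minus the chow effect, 0 of 19717 genes passed in edgeR (0%), with 714 higher and 457 lower at an unadjusted p under 0.05 (3.62% and 2.32%), while DESeq2 called 4 and limma voom 4. For the corticosterone effect minus the high-fat diet effect, 0 passed in edgeR (0%), with 390 higher and 246 lower at an unadjusted p under 0.05 (1.98% and 1.25%), while DESeq2 called 1 and limma voom 0. Muscle genes hold large values in the first of these differences, since Ttn was higher in FMRKO on chow by 7.12 ± 2.15 and had a log2 fold change of -4.78 ± 1.94 with corticosterone, through control 2.

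The share of genes whose groups did not overlap was higher near Zfp949 than elsewhere, which is given as a description with no test. Within 5 Mb of its start on chromosome 9, 9 of 50 tested genes did not overlap between the groups (18%), 2 above and 7 below, against 4.81% of 18644 genes on other chromosomes. Between 10 and 20 Mb the share was 10.6% of 216, and between 5 and 10 Mb it was 4.76% of 63. The following were chosen after their values were seen. The long noncoding transcripts 9430037G07Rik and 9330159M07Rik, both within 5 Mb, were lower in FMRKO with corticosterone (-0.65 ± 0.23 and -0.52 ± 0.18), on chow (-0.45 ± 0.23 and -0.13 ± 0.18) and under high-fat feeding (-0.77 ± 0.23 and -0.27 ± 0.18). Plod2, a lysyl hydroxylase that sets collagen crosslinks, was at 7.89, 8.77, 6.56 and 7.06 CPM in the controls and 6.48, 5.21, 5.85 and 4.79 CPM in FMRKO (-0.44 ± 0.17, with -0.74 ± 0.17 on chow and -0.41 ± 0.17 with high-fat feeding). Rasgrf1, a Ras exchange factor, was at 1.68, 2.36, 0.99 and 3.42 CPM against 3.65, 6.23, 6.99 and 5.64 CPM (1.41 ± 0.51). Bckdhb, a subunit of the branched-chain ketoacid dehydrogenase, was at 74.2, 63, 65.1 and 77.6 CPM against 100, 94.9, 80.4 and 91.9 CPM (0.39 ± 0.18). Neighbouring genes share chromosome and strain background within a mouse, so they are not independent of each other, and the labels do not give the strain background.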

How the data were processed

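Gene counts, CPM and RPKM were deposited by the authors for each library. Per the submitters' processing notes they used STAR 2.5.1a and featureCounts 1.4.6p-5 (Subread) on GRCm38; the annotation release and strand use are not stated there, and reads of overlapping antisense partners cannot be told apart. The deposited CPM and RPKM columns were not used; CPM here is recomputed from the counts with TMM scaling. Per the labels' protocols, total RNA was depleted of ribosomal RNA. Counts were fitted with edgeR 4.0.16 (R 4.3.3; filterByExpr with a minimum count of 10, TMM, quasi-likelihood test) over all 24 libraries with 6 group means, which left 19717 of 41388 genes. P-values are two-sided, adjusted by Benjamini-Hochberg over all genes, threshold 0.05, and untransformed levels are CPM. List levels are mean log2 CPM with a prior count of 2. The script was tested on simulated data. Named genes are the targeted gene and its partners, called genes, the 12 higher and 12 lower of smallest p without overlap, members of the 22 gene and 11 marker lists by p or overlap, and genes that lead control 2 or FMRKO 3 and 4; the text says where a gene was chosen after its values were seen. Members and lists were chosen with earlier results of these data known. Alternatives were DESeq2 1.42.0, limma 3.58.1 voom with sample weights, RLE scaling, no filter, the 8 libraries alone, a replicate block, robust estimation, 3 marker covariates, and libraries left out. Replicate numbers did not pair the libraries. Sequences are RefSeq promoters of GRCm38.p6. Some members of the lists are counted but not reported here by name.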

Additional observations from a re-analysis of the deposited data

Results flagged for a closer look

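The values below stand apart from the other 3 libraries of their group by more than Dixon's 95% critical value for 4 samples allows. Among 238 groups of 4 values tested, over named genes and list levels, 31 held such a library, and 19 of the 31 were in FMRKO 2. The rate of about 1 in 20 that chance gives cannot be set against this count. Some of the genes were named because they lead 1 library, and the interferon genes were high together in FMRKO 2. None of the flagged values was weighed against an explanation here.

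FMRKO 2 stood above the other FMRKO libraries in interferon signalling genes: Stat2 (115 CPM), Irf1 (68.6 CPM) and Irf7 (151 CPM). Effector genes of the same response stood apart there too, with Isg15 at 46.3, Ifit1 at 44, Ifit3 at 103, Rsad2 at 36.9, Oasl2 at 88.6 and Mx2 at 8 CPM. The interferon gamma-linked genes Gbp2 (180 CPM), Iigp1 (207 CPM), Cxcl9 (176 CPM) and Cxcl10 (26.9 CPM), with Rtp4 (45.2 CPM) and Gzmb (14.4 CPM), formed a further group. The mean log2 CPM of the interferon-stimulated genes was 5.69 in FMRKO 2. The vessel and macrophage genes Lyve1 (150 CPM) and Gpr182 (21.6 CPM) were highest in this library, and its Schwann cell list was lowest, at 2.57 mean log2 CPM.

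Control 2 stood apart in Ttn (1363 CPM), Myh4 (641 CPM), Ckm (118 CPM), Ighg2b (28.1 CPM) and the basal epithelium and keratinocyte list (1.55 mean log2 CPM). Control 1 had Gsta4 at 14.9 CPM and the clock list at 5.18 mean log2 CPM. Control 4 had the interferon-stimulated list at 3.3 mean log2 CPM, and Csn3 at 0.0856 CPM where the other controls were at 0. FMRKO 3 had 9330159M07Rik at 6.32 CPM, and FMRKO 4 had 9430037G07Rik at 0.714 CPM and Myh4 at 3.89 CPM.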

How the results depend on the processing

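Zfp949 passed under all 19 alternatives (log2 fold change 0.92 to 1.03 with 1 library left out). The 1 gene called became 6 in DESeq2, 2 with the corticosterone libraries alone, 5 with limma voom, 12 without FMRKO 3 and 4 (1 without control 2 as well, and 1 without FMRKO 2 and 3), and 1 to 3 with 1 library left out; the 3 came without control 1. The difference from chow held 4 calls in DESeq2 and 4 in limma voom, that from the high-fat diet 1 in DESeq2; the cause was not tested. With a replicate block the calls were 1, 0 and 0. Replicate numbers did not pair the libraries: same-numbered libraries correlated at -0.04 to 0.08 in their deviations from the group means. The Nr3c2 level difference ran from -0.75 to -0.52 with 1 library left out, where 4 against 3 cannot go below an exact permutation p of 0.057. Unadjusted calls ranged from 348 to 960 higher and 195 to 717 lower genes. Ltf and Csn3, with libraries at 0 counts, are limited by depth; the effect of depth on other genes was not tested.

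Of 1627 values of 86 named genes under alternatives, 39 changed sign, in 17 genes. With the muscle, epithelium and lymph node covariates these were Nr3c1 (0.02), Hsd11b1 (0.17), Fads1 (0.01), Eif4g1 (0.00), Ckm (1.21), Krt8 (-0.34), Csn3 (-5.44), Cd3e (-0.46) and Fcgbp (-0.65). Without FMRKO 3 and 4 they were Hsd11b1 (0.15), Adipoq (-0.01), Krt8 (-0.11), Csn3 (-2.33) and Fcgbp (-1.10), and without control 2 as well Hsd11b1 (0.00), Adipoq (-0.06), Krt8 (-0.48) and Csn3 (-2.77). Without FMRKO 2 and 3 they were Cxcl9 (-0.00), Gzmb (-0.97), Cd3e (-0.27) and Ighg2b (-0.17). With 1 library left out, the ranges were -0.29 to 0.08 for Hsd11b1, -0.05 to 0.05 for Adipoq, -0.12 to 0.13 for Lep, -0.23 to 0.06 for Fasn, -0.07 to 0.21 for Adgre1, -0.01 to 2.65 for Cxcl9, -0.89 to 4.05 for Gzmb, -5.21 to 0.11 for Ttn and -0.65 to 3.66 for Ighg2b. The causes were not tested beyond the libraries and covariates named.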
